A study of Mus musculus with 8 samples.

Results

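Keratins are the intermediate filament proteins of epithelial cells, and their genes lie in a pair of dense clusters in the mouse. Here the H2AK119ub peaks at all keratin genes were read in basal epidermal progenitors of newborn mice. The members were the RefSeq protein-coding genes named Krt with a number and at most 1 letter, without the keratin-associated protein genes, in the mouse assembly GRCm38, that is mm10. This gave 53 of 21883 protein-coding genes. Of these, 27 lay on chromosome 11 and 26 on chromosome 15. By protein type 28 are type I and 25 type II keratins, since Krt18, a type I keratin, sits in the type II cluster.

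A keratin filament is built from pairs of 1 type I and 1 type II protein, and each epithelial layer uses its own pair: Krt5 with Krt14 in basal cells, Krt1 with Krt10 above them, Krt8 with Krt18 in simple epithelia. H2AK119ub is histone H2A with a single ubiquitin, placed by Polycomb repressive complex 1 (PRC1), a complex known for keeping genes of other lineages silent. Eed belongs to the core of the sister complex PRC2, the methyltransferase of H3K27, and some forms of PRC1 bind that methyl mark.

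Chromatin came from sorted cells of back skin epidermis on postnatal day 0 (EpCAM+, Sca1+, high α6-integrin). The groups used here were Eed cKO, labelled Eed-/-, and control, with 2 H2AK119ub libraries and 1 input each. A Ring1a-/- Ring1b-/- library and its input were not analysed here. The sources used here do not give the Cre driver, the alleles of the controls, or which animals the libraries came from. Each genotype had 1 deposited list of peak positions (ChIP-seq, chromatin immunoprecipitation and sequencing) without scores or heights, 2541 peaks over 16.6 Mb in Eed cKO and 4621 peaks over 29.0 Mb in control.

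A single list per genotype allows neither a replicate error nor a test, so all values describe these lists. The depth behind them is unknown, and a peak missing from a list through lack of mark, shallow sequencing or the call threshold cannot be told apart. Nor can mark on fewer cells and less mark per cell. Peaks of a histone mark do not measure expression, so the sorted cell type could not be checked against its markers. None of the 6 basal progenitor markers (Krt5, Krt14, Trp63, Itga6, Epcam and Ly6a) had a peak at a gene end in either list. Over all protein-coding genes 7.40% had one in Eed cKO and 11.7% in control. Of 6 Merkel cell markers, 5 had one in both lists: Atoh1, Isl1, Sox2 and the keratin genes Krt8 and Krt18. No melanocyte marker of 4 had one in Eed cKO, against 2 in control, and no fibroblast marker of 3 in Eed cKO, against 1 in control. The 3 leukocyte markers had none. In marker lists this small a count of 0 cannot be told apart from the share over all genes. For 0 of 6 the interval reaches 39.0%.

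A gene was called marked when a peak overlapped the 2000 bp on either side of its annotated start or end by at least 1 bp. In Eed cKO 11 of 53 keratin genes were marked (20.8%, 95% Wilson interval 12.0 to 33.5), against 7.40% of all protein-coding genes. In control 16 of 53 were marked (30.2%, 19.5 to 43.5), against 11.7% of all genes. Both pooled shares stood above the background of their own list. In control the excess lay on chromosome 15, where 13 of 26 keratin genes were marked (32.1% to 67.9%). On chromosome 11 control marked 3 of 27 (3.85% to 28.1%), an interval that holds the 11.7%. In Eed cKO 5 of 27 were marked on chromosome 11 and 6 of 26 on chromosome 15. Neighbouring keratin genes share peaks, so these intervals, which cover counting error only, are too narrow: 8 peaks marked the 11 genes in Eed cKO and 15 peaks the 16 genes in control. No peak at a marked keratin gene lay at an end of a gene outside the family.

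Of the 21 keratin genes marked in either list, both lists marked 6, namely Krt1, Krt8, Krt15, Krt18, Krt19 and Krt78 (11.3% of keratin genes, 5.29 to 22.6, against 5.71% of all genes). Eed cKO alone marked 5, Krt4, Krt13, Krt17, Krt42 and Krt79 (9.43%, 4.10 to 20.3, against 1.70% of all genes). Control alone marked 10, Krt2, Krt7, Krt10, Krt72, Krt80, Krt82, Krt83, Krt84, Krt87 and Krt90 (18.9%, 10.6 to 31.4, against 5.95% of all genes). With the control list trimmed to its 2541 widest peaks, as many as Eed cKO holds, 6 genes were marked in Eed cKO alone and 6 in control alone. With the wider peaks of each list these counts were 6 in Eed cKO alone and 5 in control alone. The shares over all genes were not computed for these shorter lists, so the shift in counts cannot be called particular to keratins. Among the 11 keratin genes with an Eed cKO peak, control shared 6 (54.5%, 28.0 to 78.7), against 77.1% over all genes marked in Eed cKO. Among the 16 with a control peak, Eed cKO shared 6 (37.5%, 18.5 to 61.4), against 49.0% over all genes marked in control. Both intervals hold the share over all genes.

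**Figure D1:**
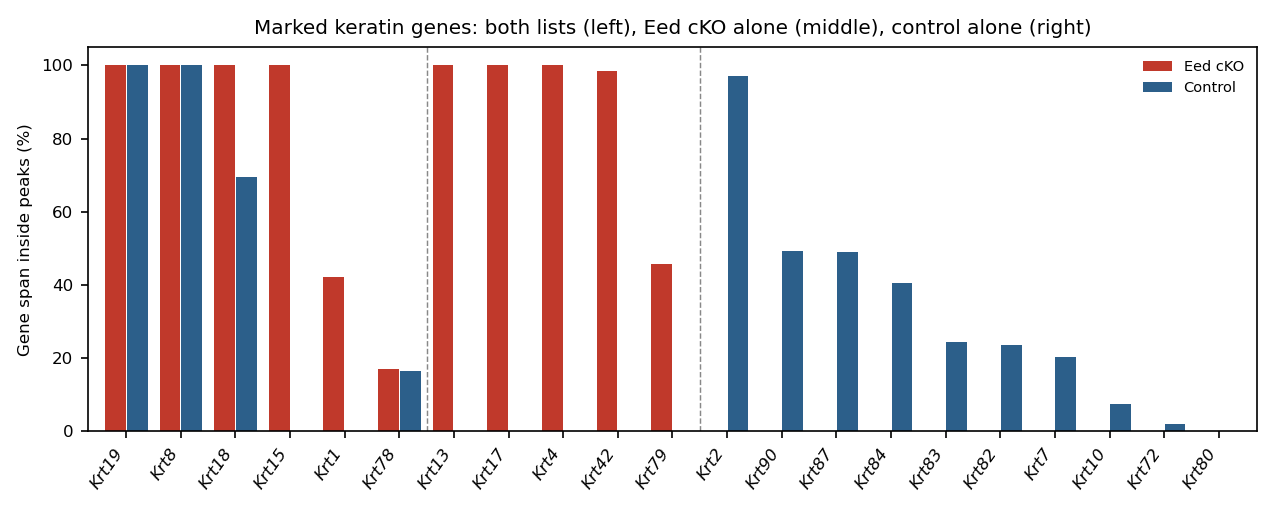
Share of each marked keratin gene's annotated span that lies inside H2AK119ub peaks, in percent, for the Eed cKO list (red) and the control list (blue); dashed lines part the 6 genes marked in both lists, the 5 marked in Eed cKO alone and the 10 marked in control alone. A marked gene can be at 0 when its peak lies beside it, as Krt15 and Krt1 do in control. Of the 11 genes marked in Eed cKO, 7 were covered over their whole span there, and of the 16 marked in control 2 were. Of the 5 marked in Eed cKO alone Krt4, Krt13 and Krt17 were, and none of the 10 marked in control alone was. Short spans are more easily covered whole, and span lengths differed between these sets.

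The extent of cover differed between these sets. In Eed cKO 7 keratin genes lay wholly inside peaks (Krt4, Krt8, Krt13, Krt15, Krt17, Krt18 and Krt19), against 2 in control (Krt8 and Krt19). The share of all genes covered whole was not computed. Short spans are more easily covered whole: these 7 genes span 3.81 to 7.63 kb, and the 10 marked in control alone 6.38 to 21.8 kb. The 5 genes marked in Eed cKO alone were covered over 45.8% to 100% of their span there. The 10 marked in control alone were covered over 0% to 97.1% in control, with a median of 24.0%. The plot of covered spans shows every marked gene.

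The keratins were next read by role, in groups of 3 to 15 genes, each count beside the 7.40% of all genes marked in Eed cKO and the 11.7% in control. In groups this small a count of 0 allows a share above either value. Simple epithelial keratins, which build the filaments of one-layered and glandular epithelia, were marked in 3 of 6 cases in Eed cKO and 4 of 6 in control. Krt8 and Krt18, the pair of simple epithelia and Merkel cells, lay in a marked stretch at one edge of the type II cluster. The promoters of this pair are printed here with 3 others, as examples of start sites inside a control peak, beside an Eed cKO peak and outside all peaks. They are not typical cases: of the keratin promoters Krt7 holds the most CG dinucleotides, 21, and Krt42 is among the lowest with 2. Each runs from 250 bases before to 50 bases after the RefSeq start site in GRCm38.p6, 5′ to 3′ on the gene's strand, with every CG in capitals. CG dinucleotides are printed because Polycomb complexes are known to favour CG-rich DNA.
Krt8, inside peaks of both lists, minus strand, chr15:102004293-102004592: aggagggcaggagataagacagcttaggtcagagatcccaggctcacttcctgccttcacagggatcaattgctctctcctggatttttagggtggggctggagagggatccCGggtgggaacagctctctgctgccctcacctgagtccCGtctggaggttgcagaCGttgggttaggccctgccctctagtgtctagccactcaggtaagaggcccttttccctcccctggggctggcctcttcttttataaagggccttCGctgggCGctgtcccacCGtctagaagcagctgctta
Krt18, inside peaks of both lists, plus strand, chr15:102027966-102028265: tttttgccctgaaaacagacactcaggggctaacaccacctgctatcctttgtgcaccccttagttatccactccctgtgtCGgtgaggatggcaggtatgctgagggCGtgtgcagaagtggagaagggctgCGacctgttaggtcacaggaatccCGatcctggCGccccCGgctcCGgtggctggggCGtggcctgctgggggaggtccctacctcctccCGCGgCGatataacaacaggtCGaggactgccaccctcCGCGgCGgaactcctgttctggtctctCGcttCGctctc
Krt7, inside a control peak alone, plus strand, chr15:101412153-101412452: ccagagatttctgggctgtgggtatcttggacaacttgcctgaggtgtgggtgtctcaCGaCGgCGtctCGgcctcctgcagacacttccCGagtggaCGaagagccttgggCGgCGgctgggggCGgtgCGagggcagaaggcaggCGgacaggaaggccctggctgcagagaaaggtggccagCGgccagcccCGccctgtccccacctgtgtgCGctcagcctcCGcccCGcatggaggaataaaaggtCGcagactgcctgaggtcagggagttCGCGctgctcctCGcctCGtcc
Krt42, start site 0.116 kb outside an Eed cKO peak and far from any control peak, minus strand, chr11:100269902-100270201: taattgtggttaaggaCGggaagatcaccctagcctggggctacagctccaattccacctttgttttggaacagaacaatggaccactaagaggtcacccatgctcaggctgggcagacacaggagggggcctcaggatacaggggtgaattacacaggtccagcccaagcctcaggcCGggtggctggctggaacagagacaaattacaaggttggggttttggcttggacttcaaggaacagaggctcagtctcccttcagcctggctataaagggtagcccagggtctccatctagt
Krt5, outside all peaks, minus strand, chr15:101712856-101713155: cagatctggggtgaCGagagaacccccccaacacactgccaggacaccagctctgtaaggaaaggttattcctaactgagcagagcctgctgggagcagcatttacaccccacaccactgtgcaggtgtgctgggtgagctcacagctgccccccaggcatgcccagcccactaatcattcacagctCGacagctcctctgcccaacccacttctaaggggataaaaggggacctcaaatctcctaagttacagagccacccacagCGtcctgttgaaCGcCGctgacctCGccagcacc

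At Krt8 the Eed cKO peak was 30.4 kb wide (chromosome 15, 101987954 to 102018383) and the control peak 32.5 kb (101988246 to 102020723). Eed cKO covered 92.8% of the control peak. At Krt18 a single Eed cKO peak of 25.5 kb (102021402 to 102046908) stood against a pair of control peaks of 6.99 and 24.3 kb (102021340 to 102028325 and 102029493 to 102053836). The gap of 1.17 kb between the control peaks lay inside Krt18, so 69.4% of its span was covered in control, against 100% in Eed cKO. Across the 39.3 kb from Krt8 to Krt18, with 2000 bp added at both ends, peaks covered 92.3% in Eed cKO and 95.5% in control. The pair was thus covered to a like extent in both lists.

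Krt19, a type I keratin of simple epithelia and hair follicle cells, lay wholly inside a 31.2 kb peak in Eed cKO (chromosome 11, 100125550 to 100156774) and a 10.8 kb peak in control (100137124 to 100147874). The control peak lay entirely within the Eed cKO peak and made up 34.4% of it. Krt7, a type II keratin of ducts and simple epithelia, had a 3.96 kb peak over its start site in control (chromosome 15, 101411591 to 101415548). In Eed cKO the nearest peak lay 177 kb from an end of Krt7. Krt20, known from intestine, urothelium and Merkel cells, had no peak within 444 kb in Eed cKO or 21.4 kb in control. For Krt23 these distances were 493 and 15.7 kb.

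Of the 3 basal layer keratins, 1 was marked in each list, Krt15 in both. In Eed cKO the 31.2 kb peak of Krt19 also covered the whole of Krt15, while in control the shared 10.8 kb peak ended 1.18 kb from Krt15 and covered none of it. The call of Krt15 in control therefore rests on the window, and with 1000 bp in place of 2000 bp Krt15 was marked in Eed cKO alone. Krt5 and Krt14, the basal pair, lay outside all peaks. The nearest peak was 136 kb from Krt5 in Eed cKO and 6.17 kb in control, and 40.9 kb from Krt14 in Eed cKO and 55.3 kb in control.

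Suprabasal keratins, of the differentiating layers, were marked in 2 of 6 cases in Eed cKO and 4 of 6 in control. Krt1 had a 6.58 kb peak in Eed cKO (chromosome 15, 101848524 to 101855102) that covered 42.2% of the gene. Its control peak was 3.65 kb wide (101852057 to 101855711) and lay 1.27 kb outside the gene. With a window of 1000 bp, the wider peaks of each list or the trimmed control list, Krt1 was marked in Eed cKO alone. Krt2, a keratin of the granular layer, was covered over 97.1% of its span by an 8.03 kb control peak (101810760 to 101818786). In Eed cKO the nearest peak to an end of Krt2 was 29.6 kb away.

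The calls at Krt10 and Krt78 rest on the 5′ ends of their annotated spans, which lie 8.09 and 42.3 kb from the listed RefSeq start sites. Krt10, the partner of Krt1, had a 2.19 kb control peak (chromosome 11, 99396552 to 99398741) at the 5′ end of its span, 7.19 kb from the RefSeq start site. It had no Eed cKO peak within 401 kb. The Krt78 span is 50.6 kb long and ends beside Krt8, whose peak marked it in both lists. Its RefSeq start site lay 19.9 kb from the nearest Eed cKO peak and 34.0 kb from the nearest control peak. Krt9, the keratin of palms and soles, and Krt77 were marked in neither list.

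Among keratins of activated cells, companion layer and nail, 3 of 7 were marked in Eed cKO and 0 of 7 in control, against 7.40% of all genes in Eed cKO and 11.7% in control. Of the 3 genes, 2 (Krt17 and Krt42) share 1 peak, and 0 of 7 cannot be told apart from 11.7%. Krt17, a type I keratin of hair follicles that is also induced in wounds, lay wholly inside a 14.2 kb Eed cKO peak (chromosome 11, 100255653 to 100269835). The same peak covered 98.4% of Krt42, its neighbour, a keratin of the nail. In control no peak lay within 91.9 kb of Krt17 or 83.0 kb of Krt42. Krt79, a keratin of the hair canal, shared an 8.70 kb Eed cKO peak with Krt4 (chromosome 15, 101925668 to 101934371). That peak covered 45.8% of Krt79 from its 3′ end and stopped 5.95 kb short of its start site. Krt16, Krt6a, Krt6b and Krt75 had no peak at either end in either list. Krt16 lay 6.75 kb from the Eed cKO peak at Krt17.

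Keratins of internal stratified epithelia and cornea were marked in 2 of 5 cases in Eed cKO and 0 of 5 in control, against 7.40% of all genes in Eed cKO and 11.7% in control. The 0 of 5 cannot be told apart from 11.7%. Krt13, a keratin of oral and oesophageal epithelium, was covered whole by a 9.90 kb Eed cKO peak (chromosome 11, 100114034 to 100123937). In control the nearest peak, that of Krt19, lay 15.6 kb from it. Krt4, the type II partner of Krt13, was covered whole by a 9.72 kb Eed cKO peak (chromosome 15, 101915121 to 101924840) and met a second of 8.70 kb beside it. The nearest control peak was 62.8 kb from Krt4. Krt12 of the cornea, Krt24 and Krt76 were unmarked.

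**Figure D2:**
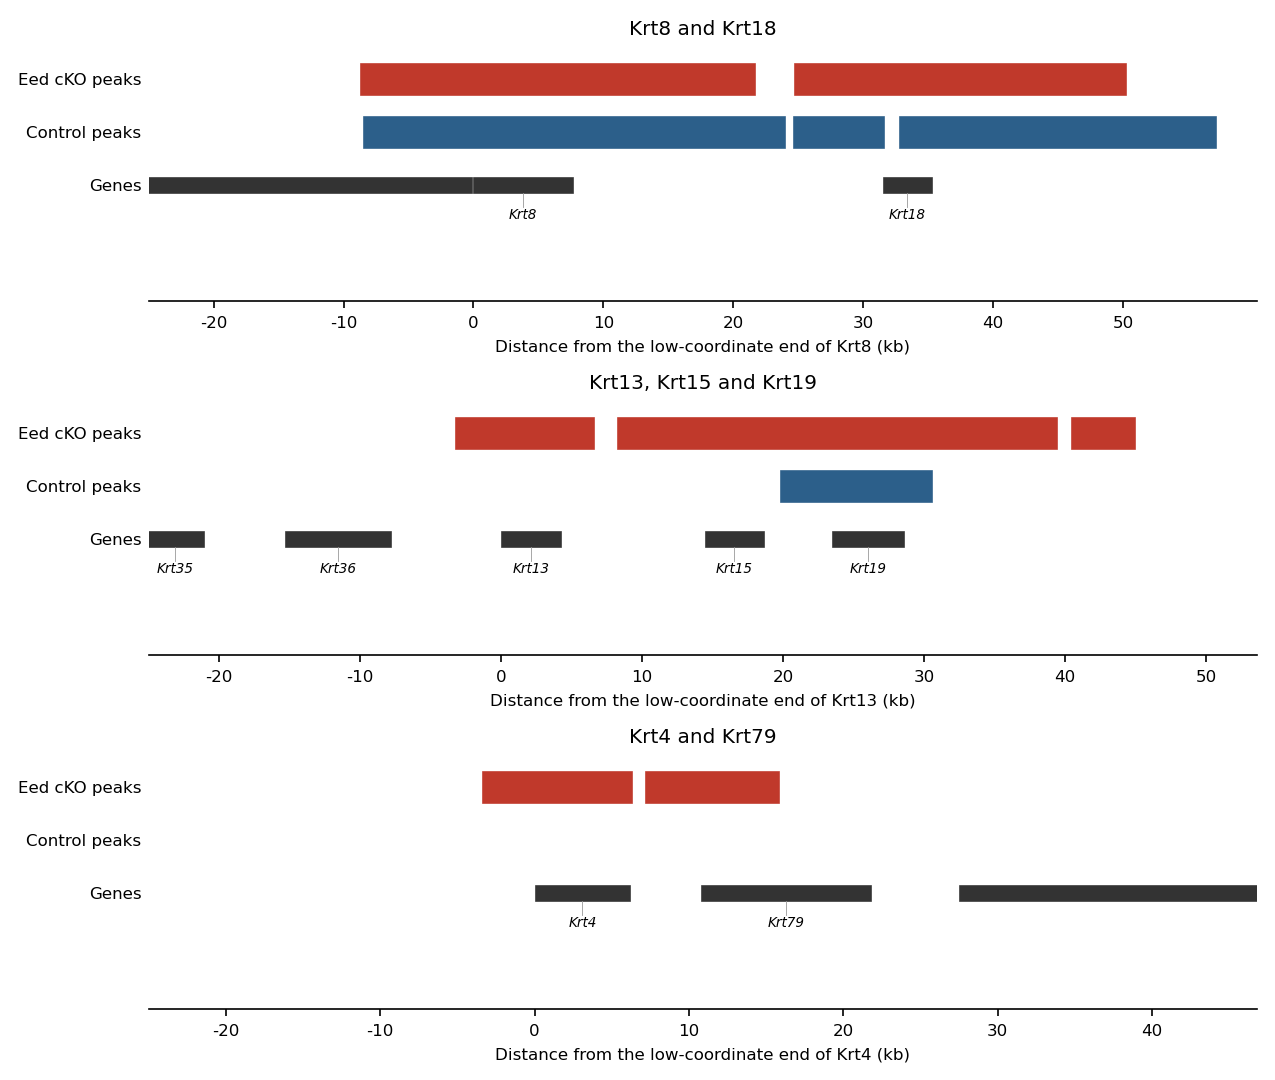
Peaks of the Eed cKO list (red) and the control list (blue) around Krt8 and Krt18, around Krt13, Krt15 and Krt19, and around Krt4 and Krt79, with gene spans in black; the x axis is the distance in kb from the low-coordinate end of the first gene named, and the unlabelled gene cut by the panel edge is Krt78. At Krt8 and Krt18 the stretch was covered to 92.3% in Eed cKO and 95.5% in control, at Krt13 to Krt19 Eed cKO peaks extended past the single 10.8 kb control peak on both sides, and at Krt4 and Krt79 no control peak was present.

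Of 15 hair shaft keratins 0 were marked in Eed cKO and 4 in control, against 7.40% of all genes in Eed cKO and 11.7% in control. The interval of the control share, 10.9% to 52.0%, holds the 11.7%. Of 7 inner root sheath keratins 0 were marked in Eed cKO and 1 in control (2.57% to 51.3%). With the control list trimmed to its 2541 widest peaks, as many as Eed cKO holds, Krt82 and Krt87 were the hair keratins marked in control. The share over all genes was not computed for the trimmed list. The 4 hair shaft genes, Krt82, Krt83, Krt84 and Krt87, are all type II genes at one side of the chromosome 15 cluster. Krt87 had an 8.13 kb control peak over 49.1% of its span, Krt84 a 3.15 kb peak over 40.5%, and Krt83 a 3.27 kb peak over 24.5%. Krt82, a keratin of the hair cuticle, had a 3.54 kb peak at its 3′ end and shared a 5.84 kb peak with Krt90 at its 5′ end. Krt72, of the inner root sheath cuticle, had a 3.64 kb control peak over its start site (chromosome 15, 101786311 to 101789950). The nearest Eed cKO peak to an end of these 5 genes lay 62.0 kb away at Krt72 and 196 to 298 kb away at the others.

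All 9 type I hair shaft keratins, Krt31 to Krt36, Krt39 and Krt40, and the 4 type I root sheath keratins, Krt25 to Krt28, had no peak at an end in either list. Hair keratins hold near-identical neighbours, as do Krt6a and Krt6b, and the treatment of reads that map to several places is not given in the sources used here. A missing peak at such genes is therefore uncertain. Krt80, a keratin of many epithelia, had a 20.0 kb control peak 1.06 kb beyond its end, and Krt90 was covered over 49.4% in control. Both are in none of these role groups and had no Eed cKO peak at an end.

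Of the 53 keratin genes, 32 had no peak at either end, and none of these 32 had a peak inside its span. The nearest peak lay a median of 161 kb from an end of these genes in Eed cKO and 36.0 kb in control. Just inside the window, Krt80 lay 1.06 kb, Krt15 1.18 kb and Krt1 1.27 kb from a control peak. Krt84 held its control peak inside its span, 0.810 kb from its nearer end. Just outside, Krt6a lay 2.68 kb from a control peak, Krt77 3.63 kb from an Eed cKO peak and 3.02 kb from a control peak, and Krt73 and Krt86 3.35 and 3.44 kb from control peaks. No gene lay between 1.27 and 2.68 kb, so any limit between these distances gives the same calls.

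The clusters as a whole were compared next, from 2000 bp before the first to 2000 bp after the last keratin gene. The type II cluster on chromosome 15 (101346315 to 102034026, 688 kb) held 26 keratin genes and 1 other protein-coding gene. It contained 5 Eed cKO peaks, with a median width of 9.72 kb, and 15 control peaks, with a median of 3.96 kb. Eed cKO peaks covered 9.90% of it and control peaks 16.5%. Over chromosome 15 between its first and last gene, the cover was 1.01% in Eed cKO and 1.84% in control. There were 7.27 Eed cKO peaks per Mb in the cluster, against 1.49 along the chromosome, and 21.8 control peaks per Mb, against 2.52. The cluster was thus peak-dense per Mb in both lists, with no allowance for its gene density.

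**Figure D3:**
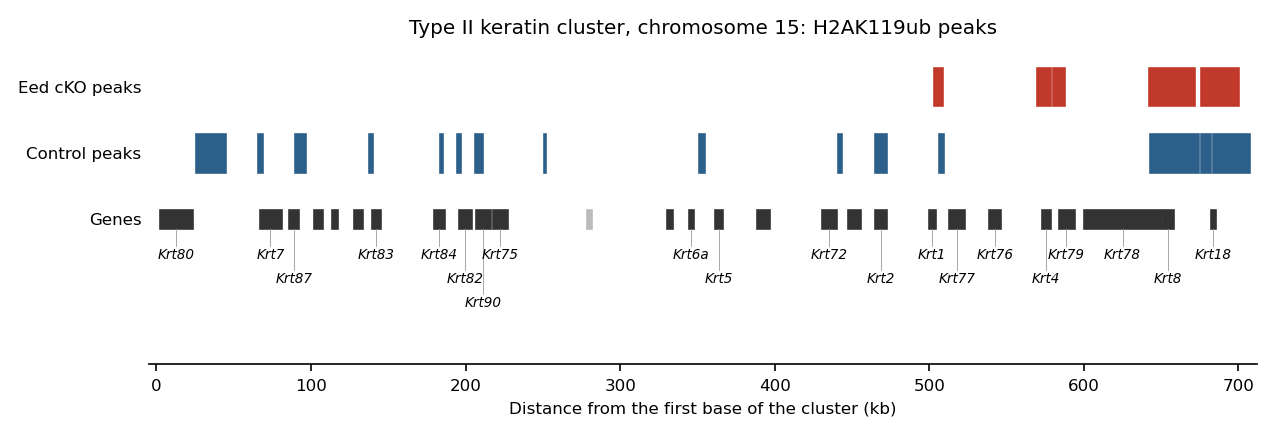
Peaks of the Eed cKO list (red) and the control list (blue) across the type II cluster, with keratin genes in black and the other protein-coding gene in grey; the x axis is the distance in kb from the first base of the cluster. Control peaks run from Krt80 to Krt18, whereas Eed cKO peaks begin at Krt1, with no Eed cKO peak over the 18 genes from Krt80 to Krt2.

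The lists parted along the type II cluster. From Krt80 to Krt75, a stretch of 230 kb with 11 keratin genes, there were 0 Eed cKO peaks and 7 control peaks, of 3.15 to 20.0 kb, that covered 20.9%. From Krt6b to Krt77, 198 kb with 9 genes, 1 Eed cKO peak covered 3.33% and 4 control peaks covered 9.73%. From Krt76 to Krt18, 152 kb with 6 genes, 4 Eed cKO peaks covered 40.5% and 3 control peaks 29.0%. The longest stretch without a peak ran for 502 kb in Eed cKO, over 18 keratin genes from Krt80 to Krt2. In control it ran for 133 kb, over 4 genes from Krt77 to Krt79. These stretches were drawn after the peaks were seen.

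The type I cluster on chromosome 11 (99230761 to 100271951, 1040 kb) held 27 keratin genes, 23 keratin-associated protein genes and 16 other protein-coding genes. The split is by the symbol Krtap alone, and most of the 16 are unnamed gene models that lie among the Krtap genes. Each list had 4 peaks there, with a median width of 12.0 kb in Eed cKO and 2.46 kb in control. That is 3.84 peaks per Mb in each list, against 2.25 in Eed cKO and 4.06 in control along chromosome 11. These 4 peaks of each list covered different amounts of the cluster. They covered 59.9 kb (5.75%) in Eed cKO and 16.8 kb (1.61%) in control, a ratio of 3.56. Over all chromosomes the same ratio was 0.573, and across the type II cluster it was 0.599. The type I cluster therefore had more covered sequence in Eed cKO, in lists where Eed cKO held less in total. Chromosome 11 as a whole was covered to 1.55% in Eed cKO and 2.53% in control.

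**Figure D4:**
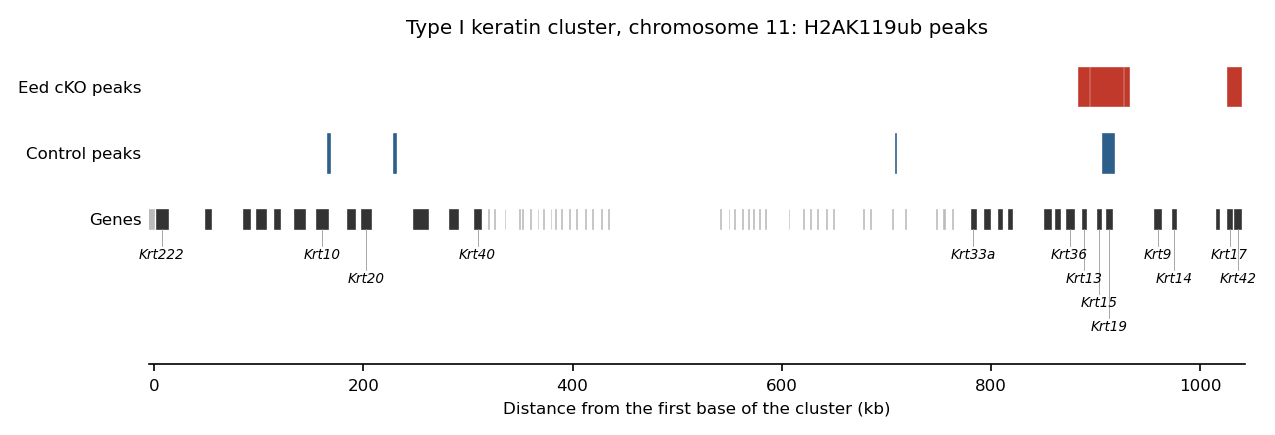
Peaks of the Eed cKO list (red) and the control list (blue) across the type I cluster, with keratin genes in black and other protein-coding genes, most of them keratin-associated protein genes, in grey; the x axis is the distance in kb from the first base of the cluster. All 4 Eed cKO peaks lie in the stretch of Krt13 to Krt42, and 3 of 4 control peaks lie outside that stretch.

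In Eed cKO all 4 type I peaks lay on the side of Krt13 to Krt42, where peaks covered 22.8% of the 263 kb from Krt33a to Krt42, against 4.09% in control. On the other side, the 314 kb from Krt222 to Krt40 with 12 keratin genes, there were 0 Eed cKO peaks and 2 control peaks, which covered 1.56%. One of these was the peak of Krt10, and the other, 2.73 kb wide, lay 15.7 kb from Krt23. From Krt13 to Krt19, 32.6 kb, the cover was 95.1% in Eed cKO and 33.0% in control. A further 4.57 kb Eed cKO peak lay 11.8 kb beyond Krt19.

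Of 9 Eed cKO peaks in both clusters together 4 met a control peak (44.4%, 18.9 to 73.3), against 70.1% of all Eed cKO peaks. Of 19 control peaks 5 met an Eed cKO peak (26.3%, 11.8 to 48.8), against 37.9% of all control peaks. Both intervals hold the share over all peaks. The shared peaks lay at Krt15 and Krt19, Krt1, Krt8 and Krt18. Across the type II cluster the lists shared 44.6 kb, which was 65.6% of the Eed cKO cover and 39.3% of the control cover. In the type I cluster they shared 10.8 kb, 18.0% of the Eed cKO cover and 64.0% of the control cover. The median width over both clusters was 9.90 kb in Eed cKO and 3.91 kb in control, against 5.17 and 4.33 kb over the whole lists.

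Start sites gave a stricter view. RefSeq promoter entries were found for 36 of 53 keratin genes, and 3 of these (8.33%, 2.87 to 21.8) had a start site inside an Eed cKO peak, against 3.90% of all genes with an entry. In control 5 of 36 (13.9%, 6.08 to 28.7) did, against 6.73%. Both intervals hold the share over all genes. The Eed cKO start sites were those of Krt8, Krt13 and Krt18, and the control ones those of Krt2, Krt7, Krt8, Krt18 and Krt72. Of the 13 marked keratin genes with an entry, 6 had a start site in a peak of either list and 3 had one within 2000 bp of a peak (Krt42, Krt82 and Krt84). The other 4, Krt10, Krt78, Krt79 and Krt90, had their start site over 2000 bp from any peak.

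**Figure D5:**
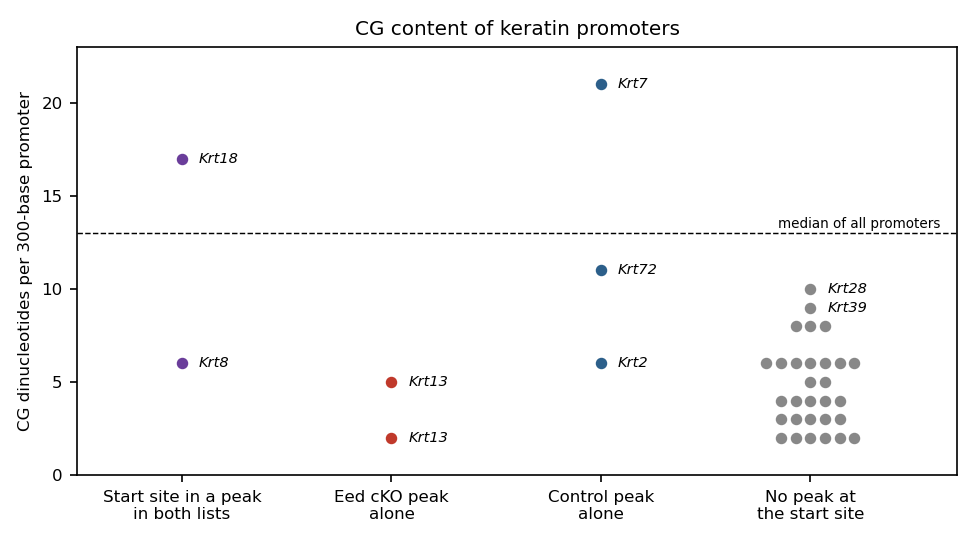
Number of CG dinucleotides in each 300-base keratin promoter, grouped by whether the start site lay in a peak of both lists, of Eed cKO alone, of control alone or of neither list; Krt13 has 2 promoter entries, and the dashed line is the median of all promoters, 13. Krt7 and Krt18 lie above that line, and the promoters with no peak at the start site hold 2 to 10.

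Keratin promoters were poor in CG. The 37 keratin entries held a median of 5 CG dinucleotides, against 13 over 21262 promoters of all protein-coding genes. All promoters with a start site in an Eed cKO peak held a median of 21, and those in a control peak 20. The CG-richest keratin promoters were those of Krt7, with 21, and Krt18, with 17, and both start sites lay in peaks. Krt72 followed with 11 and was in a control peak, and Krt28 with 10 was in none. Krt8, printed above beside Krt18, held 6, as did the unmarked Krt5 promoter, and Krt42 held 2. The 4 keratin entries with a start site in an Eed cKO peak held 2 to 17, the 5 in a control peak 6 to 21, and the 30 in neither 2 to 10. So 4 keratin start sites lay in a peak with no more than 6 CG, those of Krt2, Krt8 and Krt13 with both of its entries. At least 1 CG is held by 95.4% of all promoters, so the count and not its presence is compared. The letters TATAAA, searched on both strands, stood in 19 of 37 keratin promoters (51.4%) and in 12.6% of all promoters. Among the keratin promoters with no peak at the start site 17 of 30 held it. These matches describe letters in the window alone.

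Related gene lists were counted in the same way, against 7.40% of all genes in Eed cKO and 11.7% in control. Keratin-associated protein genes, counted by the symbol Krtap, encode the matrix of the hair shaft. They were marked in 0 of 56 cases in Eed cKO, which allows a share of up to 5.36% (6.42% by the Wilson interval). In control 1 of 56 was marked, Krtap31-2, with a 1.13 kb peak that lay outside the gene, so this call rests on the window. Both limits take the genes as independent, but 23 of the 56 lie together in the type I cluster, so the limits are too low. The caution on reads that map to several places may hold here too. Intermediate filament genes outside the family were marked in 6 of 15 cases in Eed cKO (40.0%, 19.8 to 64.3) and 9 of 15 in control (60.0%, 35.7 to 80.2), shares above the background of each list. Both lists marked Nefh, Nefm, Prph, Ina, Vim and Nes, which encode filaments of neurons, mesenchyme and neural progenitors. Vim, the mesenchymal filament, had a 6.26 kb Eed cKO peak and control peaks of 2.67 and 2.93 kb. Des, Nefl and Synm were marked in control alone. Genes of keratin filament partners and the cornified layer were marked in 2 of 24 cases in each list (8.33%, 2.32 to 25.8), which is near the background. Fam83h, a keratin-binding protein, was in both (10.6 kb in Eed cKO and 8.56 kb in control), Tgm5, a crosslinking enzyme, in Eed cKO alone and Dst, which anchors keratin at hemidesmosomes, in control alone.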

How the data were processed

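H2AK119ub ChIP-seq libraries of sorted basal epidermal progenitors gave 1 deposited peak list per genotype, with chromosome, start and end per the file headers and no score, height or p-value. Coordinates are mm10, and Bowtie2 2.3.3.1 and SAMtools 1.9 are named, per the submitters' processing notes. How peaks were called, at which threshold, whether inputs were used and how the 2 libraries of a genotype were joined is not given in the sources used here. Starts were read as counted from 0 and are printed from 1. Gene spans, promoter sequences and start sites came from RefSeq tables of GRCm38.p6. The keratins without a promoter entry were left out of counts of start sites. Intervals given beside shares are 95% Wilson intervals, and the limit given for 0 of 56 is 3 counts of the total.

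The keratin genes and the gene lists were chosen with earlier results of these data known. Named genes were all marked keratins, Krt5 and Krt14, the 4 unmarked keratins nearest to a peak and the marked members of the other lists. Further keratins were named to account for each group, after their values were seen. Krt74, a pseudogene in RefSeq, was not a member. Alternatives were other windows, stricter or trimmed lists, merged peaks, other overlap rules and wider cluster edges. Values were computed with scipy 1.17.1, pandas 2.3.3 and numpy 2.4.6 under Python 3.11.15, and plotted with matplotlib 3.10.9. The functions were tested on simulated peaks.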

Additional observations from a re-analysis of the deposited data

How the results depend on the processing

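Of 81 alternative values 62 stayed within 1.5 times the reported one. A window of 1000 or 5000 bp, the gene span, merged peaks and an overlap of 500 bp all kept the 5 keratin gene counts within it. At 1000 bp 4 genes were marked in both lists, exactly at that limit, 7 in Eed cKO alone and 9 in control alone. At 5000 bp these counts were 7, 6 and 14. With 2000 bp around the start site alone, for the 36 genes with an entry, 4 keratin genes were marked in Eed cKO, 7 in control, 2 in both, 2 in Eed cKO alone and 5 in control alone. With the start site itself inside a peak, chosen after the data were seen, these counts were 3, 5, 2, 1 and 3. Over all genes with an entry, the share with a start site inside a peak was 3.90% in Eed cKO and 6.73% in control. No share over all genes was computed for the other alternatives, so their counts have no background. With the wider peaks of each list (1270 in Eed cKO and 2310 in control), 10 keratin genes were marked in control and 5 in control alone. The control peaks then numbered 1 in the type I and 7 in the type II cluster, and covered 1.03% of the type I cluster. With the control list trimmed to its 2541 widest peaks, 6 keratin genes were marked in control alone, and the control peaks numbered 1 and 8. Narrow control peaks, such as those of Krt10, Krt72, Krt83 and Krt84, are absent from these shorter lists by construction. With 50% of a peak to be covered, 2 of 9 Eed cKO cluster peaks met a control peak. No paired analysis was possible because each genotype has 1 peak list and the libraries behind it are not separate. Depth is unknown, which limits what a missing peak shows.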

Other observations

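Known filament partners were compared, a grouping made after the calls were seen. Apart from Krt8 and Krt18, the partners lie on different chromosomes. Krt4 and Krt13, partners in oral and oesophageal epithelium, were both marked in Eed cKO alone, and each lay wholly inside a peak there. Krt8 and Krt18, the simple pair that sits side by side on chromosome 15, were marked in both lists. Krt5 and Krt14, the basal pair, were marked in neither. Krt1 was marked in both lists, in control only by a peak outside the gene. Its partner Krt10 was marked in control alone, by a peak at the 5′ end of its span, 7.19 kb from the Krt10 start site. Krt6a and Krt16 were marked in neither list, and Krt17 in Eed cKO alone.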
